A study of Mus musculus with 4 samples.

Results

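Capillary blood endothelial cells, the cells that line the smallest blood vessels, were taken from 4 single-cell libraries of regenerating mouse toe tips. They were barcodes in which at least 3 of the endothelial genes Pecam1, Cdh5, Emcn, Plvap and Kdr had a UMI (a counted RNA molecule), and in which the lymphatic genes Prox1 and Mmrn1 had none. They had fewer than 2 of the venous genes Ackr1, Selp, Sele and Vwf and fewer than 2 of the arterial genes Gja5, Gja4, Sox17 and Sema3g. This rule gave 1012 cells, which were 1.08% of the 93602 cells kept from 113503 barcodes and 28.6% of the 3538 cells with at least 3 of the endothelial genes. There were 230 capillary cells in the SAR131675 library, 188 in the control diet library, 298 after LNR and 296 among the sham cells. Because detection of these 15 genes chose the cells, their levels are not results here, and a cell can lack a venous or arterial gene through shallow counting.

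Capillaries exchange oxygen, nutrients and fluid with the tissue, and in a healing wound they are also the source of new vessels. In a growing sprout, VEGF acting on its receptor Kdr drives tip cells, which express Esm1, Apln, Angpt2 and the Notch ligand Dll4, while Dll4 signaling to Notch in the cells behind holds them as stalk. Resting capillaries of muscle, fat and heart take up fatty acids through Cd36, and Gpihbp1 carries lipoprotein lipase to their lumen. Veins express the adhesion molecules on which leukocytes leave the blood, and lymphatic vessels are kept by VEGFC acting on Flt4, which encodes VEGFR3.

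All libraries came from the amputated terminal phalanx (P3) of female C57BL/6 mice of 6 to 8 weeks, with the digits of 10 mice pooled in each. In the first experiment mice ate chow with SAR131675, a small-molecule inhibitor of VEGFR3, at 30 mg/kg, or control diet. In the second, the inguinal and popliteal lymph nodes were removed from 1 limb (LNR), and the opposite limb served as sham, so both libraries came from operated mice. Digits were collected 8 days after amputation, although the sources used here also give an earlier day for the diet libraries. Hindlimb toes were cut at the base of the middle phalanx, digested with collagenase and dispase and freed of red blood cells, and the tissue held more than the amputated tip. Every condition was 1 library and each library was its own batch in the labels, so the treatment cannot be told apart from the batch and conditions were not tested against each other.

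The libraries held 168507188 to 585284877 UMIs, and 19827 to 29076 cells were kept in each. Capillary cells had median UMI counts of 7300.5, 6219.5, 4159.5 and 4280 in the SAR131675, control diet, LNR and sham libraries, the order used for every run of 4 values here. Venous cells were deeper in each library, at medians of 9756, 8531, 4933 and 4763.5, and so were arterial cells, at 10327, 10766, 6052 and 6810.5. Lymphatic cells had medians of 6370.5, 6598.5, 7266 and 6276. No barcode was shared between libraries among the capillary cells, although 348 barcodes were shared by the SAR131675 and control diet libraries and 130 by the LNR and sham libraries over all cells.

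The genes that led these cells over all other kept cells were endothelial. After the rule genes, Flt1, a VEGF receptor, Cd93, Adgrl4 and Egfl7 stood highest above the rest, with Flt1 at 2037, 2095, 633 and 576 CPM (a gene's UMIs over all UMIs of the summed cells, times 1000000). Car4, a marker of alveolar and muscle capillaries, was nearly absent, with 1 UMI in all 1012 cells. RNA of other cell types was present too. The 6 keratinocyte markers summed to 3801, 1849.6, 8931 and 10118 CPM, the 6 fibroblast markers to 812, 1234, 2068 and 2482 CPM and the 6 pericyte and smooth muscle markers to 845, 1174, 1768 and 1596 CPM. The 6 myeloid markers summed to 111, 41.1, 90.9 and 264 CPM and the 5 erythroid markers to 1529.6, 2389, 1525 and 143 CPM, whereas T cell, melanocyte and Schwann cell markers stayed at or under 29.3 CPM in every library. At least 2 markers of 1 other type had a UMI in 202, 158, 200 and 214 capillary cells, or 87.8, 84.0, 67.1 and 72.3%. Most of this RNA sat in a minority of cells. Cells with 2 or more markers of another type at 3 or more UMIs each were 64, 52, 124 and 127 in number, or 27.8, 27.7, 41.6 and 42.9% of the capillary cells. Results are given with all cells, and where leaving these cells out moved a value far, that value stands beside it.

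Capillary cells with fewer of the 5 endothelial genes were shallower. Capillary cells with all 5 endothelial genes numbered 162, 126, 130 and 115, those with 4 numbered 35, 35, 97 and 87, and those with only 3 numbered 33, 27, 71 and 94. Cells with 3 had median UMI counts of 3174, 1427, 2967 and 3528, and cells with all 5 had 8116.5, 7909, 5388.5 and 5704. Just outside, 137, 117, 58 and 144 cells had 2 of the 5 and otherwise met the rule, of which 68, 49, 17 and 85 met the definition of a keratinocyte. Their median UMI counts were 10004, 8682, 4099.5 and 9078, above those of cells with all 5 genes in 3 of the 4 libraries. The same definition of a keratinocyte was also met by 93, 50, 67 and 69 of the capillary cells themselves. A single venous gene was detected in 59.6, 55.9, 43.3 and 43.9% of the capillary cells and a single arterial gene in 57.0, 48.9, 38.3 and 39.5%, the most the rule allows.

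Capillary cells made up 0.791% (0.692 to 0.900%) of kept cells in the SAR131675 library and 0.782% (0.675 to 0.902%) in the control diet library, with exact Clopper-Pearson 95% intervals, which cover counting error only. The log2 ratio of these shares was 0.016 (-0.27 to 0.30). In the second experiment the shares were 1.503% (1.34 to 1.68%) after LNR and 1.43% (1.27 to 1.60%) in the sham library, a log2 ratio of 0.070 (-0.17 to 0.31). Both intervals included 0. With cells that had any venous or arterial UMI left out the first ratio was -0.58 (-1.19 to 0.031), and with 2 endothelial genes required in place of 3 the second was -0.25 (-0.45 to -0.041). Keratinocytes, which set most of the denominator, were 82.1, 75.5, 52.6 and 58.8% of kept cells.

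Capillary cells were first compared with venous cells of the same libraries, with the library as a block and edgeR's quasi-likelihood test on UMIs summed per library and class. They expressed more of most of the sprouting genes, which include type IV collagens of the basement membrane, and less of many genes through which veins recruit leukocytes. Of 11005 genes tested, 579 were higher in capillary cells (5.26%) and 738 lower (6.71%) at a Benjamini-Hochberg adjusted p under 0.05. Of the 18 tip cell and sprouting genes measured, 13 were higher and 0 lower, with a median log2 fold change of 1.01 against 0.0083 over all genes. At an unadjusted p under 0.05, 1 was lower, and DESeq2 called 11 higher and 0 lower. Other cell types' RNA differed between the classes too: in venous cells the keratinocyte markers summed to 1392, 2119, 4656 and 7730 CPM, lower than in capillary cells in 3 of 4 libraries, the fibroblast markers to 742, 227, 2166 and 2240 CPM, lower in 3 of 4, and the pericyte and smooth muscle markers to 1239, 1769, 2657 and 2897 CPM, higher in 4 of 4. Without the cells holding strong markers of other types, 10 of the 16 sprouting genes that could be fitted were higher and 0 lower. The classes were set from a few genes of the same cells, so these tests show how steady a difference between the classes was over 4 libraries, and do not show the classes to be separate cell types.

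Esm1, a proteoglycan secreted by tip cells, separated the classes most. It stood at 169.9, 140.4, 101 and 78.1 CPM in capillary cells and at 0.951, 3.01, 2.03 and 0 CPM in venous cells, a log2 fold change of 6.34 (SE 0.27, adjusted p = 1.33e-07) over 4 libraries per class. The lowest capillary library was above the highest venous one. Penk, which encodes the precursor of enkephalin peptides, was at 354, 397, 484 and 415 CPM in capillary cells and 2.54, 9.89, 7.09 and 6.37 CPM in venous cells, with a log2 fold change of 5.99 (SE 0.18, adjusted p = 1.71e-08). Itm2a, an integral membrane protein gene, was at 309.9, 237, 303 and 240.2 CPM in capillary cells and 20.3, 18.1, 25.3 and 20.9 CPM in venous cells, with a log2 fold change of 3.65 (SE 0.096, adjusted p = 1.35e-08). For both genes the capillary and venous libraries did not overlap. Ednrb, the endothelin B receptor, was at 116, 114, 123 and 95.7 CPM against 14.0, 6.02, 10.1 and 14.6 CPM, with a log2 fold change of 3.25 (SE 0.18, adjusted p = 1.18e-06). The rest of the 10 largest differences were Ssu2 (4.81), Sez6l2 (4.23), the inducible nitric oxide synthase gene Nos2 (3.51), the basement membrane collagen gene Col4a4 (3.27), Prom1 (3.24) and the interferon-induced gene Rsad2 (3.08), all as log2 fold changes and all higher in 4 of 4 libraries.

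**Figure D1:**
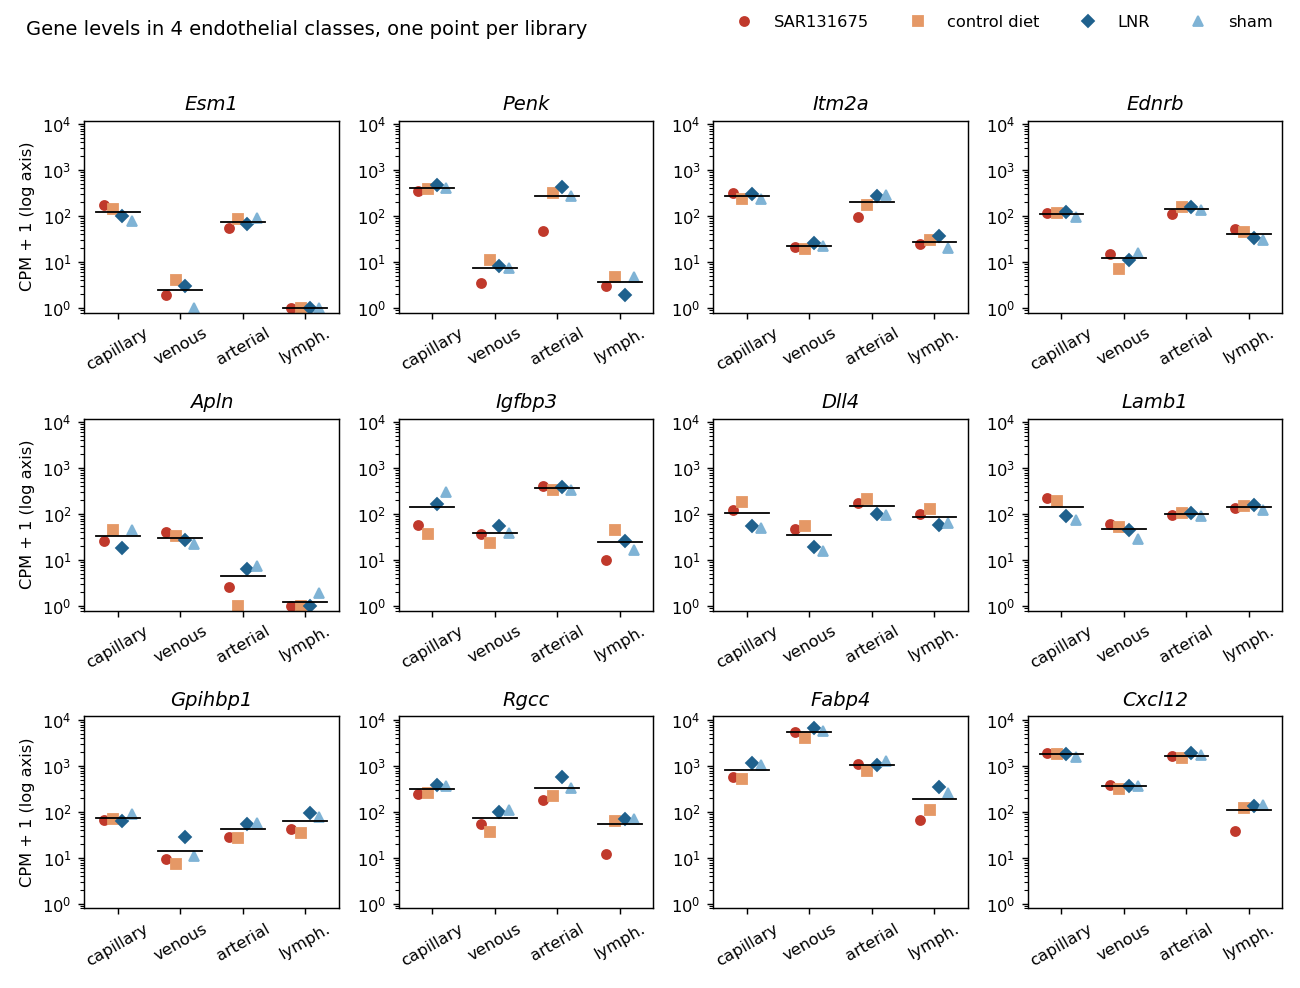
Levels of 12 genes, as CPM + 1 on a log axis, in capillary, venous, arterial and lymphatic cells, with a point per library and a line at the mean of the 4 libraries. Esm1 lies between 78.1 to 169.9 CPM in capillary cells and between 0 to 3.01 CPM in venous cells, while Fabp4 is highest in venous cells.

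Other sprouting genes were higher by smaller amounts. The type IV collagen genes Col4a1 (0.98) and Col4a2 (1.00), the laminin gene Lamb1 (1.55) and the nidogen gene Nid2 (1.03), whose products form the basement membrane, were higher, as was the pericyte-recruiting factor gene Pdgfb (0.94). Igfbp3, an insulin-like growth factor binding protein gene, was at 55.6, 35.8, 168 and 304 CPM against 35.5, 22.4, 54.7 and 38.2 CPM, with a log2 fold change of 1.60 (SE 0.32, adjusted p = 0.0067). The sham library was highest, the diet libraries were lowest, and the ranges of the classes overlapped although each library's capillary cells lay above its venous cells. Dll4 was at 125, 184, 54.6 and 49.7 CPM against 45.7, 54.2, 18.7 and 15.0 CPM, with a log2 fold change of 1.56 (SE 0.11, adjusted p = 4.96e-06), again higher within each library. The chemokine receptor gene Cxcr4 (1.97), the netrin receptor gene Unc5b (1.7), Ramp3 (2.69), Trp53i11 (1.12) and Adm (0.84) completed the 13. Without the cells holding strong markers of other types, Cxcr4, Ramp3 and Adm were not among the genes past the test. Each either failed it or had too few UMIs to be fitted. Apln, the apelin gene, was not among them: it was at 25.2, 43.3, 17.3 and 43.9 CPM in capillary cells and 39.0, 32.7, 26.3 and 20.9 CPM in venous cells, with a log2 fold change of 0.037 (SE 0.26, adjusted p = 0.967). Angpt2, which loosens contacts between endothelium and pericytes, was at 35.01, 63.5, 33.4 and 32.6 CPM against 49.5, 60.2, 49.6 and 40.5 CPM, with a log2 fold change of -0.36 (SE 0.13, adjusted p = 0.122).

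Of 20 basement membrane genes 8 were higher and 3 lower in capillary than in venous cells (median log2 fold change 0.37). Sparc, the most abundant of them, was at 2223, 2360.3, 2277 and 2271 CPM against 1898, 1359, 1956 and 1649.6 CPM, a log2 fold change of 0.38 (SE 0.089, adjusted p = 0.0179). Among 13 Notch genes 6 were higher, the receptor Notch4, the ligands Dll4 and Jag2 and the targets Heyl, Hey1 and Nrarp, and the ligand Dll1 was lower. Among 10 Wnt genes 4 were higher, the transcription factors Tcf7 (2.03) and Lef1 (1.69) and the feedback targets Axin2 (0.82) and Apcdd1 (0.73), and the coreceptor Lrp5 was lower. Of 8 VEGF genes the receptors Flt1 (0.49), Nrp1 (0.93) and Flt4 (1.39) were higher, while Nrp2 (-0.83) and the ligand Vegfc (-1.17, but 0.16 in the few cells without any markers of other types) were lower. BMP and TGF beta genes were split, with 6 of 19 higher, including the BMP target genes Id1 (0.47) and Id3 (0.21) and the ligand Bmp6 (1.74), and 4 lower, including the coreceptor Eng (-0.53) and Bmp4 (-1.58). Of 9 angiopoietin, Tie and apelin genes, Angptl2 was higher, while the angiopoietin receptor Tek (-0.63), the phosphatase Ptprb (-0.44) that acts on it and the apelin receptor Aplnr (-0.82) were lower. Without the cells holding strong markers of other types, Heyl, Lef1, Axin2, Lrp5, Bmp6 and Angptl2 were not among the genes past the test. Each either failed it or had too few UMIs to be fitted.

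Of 15 capillary and fatty acid handling genes 6 were higher and 5 lower than in venous cells, so the list did not differ in a single direction. Gpihbp1 was at 64.9, 70.2, 63.3 and 91.5 CPM in capillary cells and 8.56, 6.45, 27.9 and 10.0 CPM in venous cells, a log2 fold change of 2.49 (SE 0.30, adjusted p = 0.000233). Rgcc, a cell cycle regulator typical of microvessels, was at 247, 265, 396 and 366 CPM against 53.3, 35.3, 101 and 107 CPM, a log2 fold change of 2.12 (SE 0.14, adjusted p = 4.64e-06). The receptor-like gene Cd300lg (0.67) and the transcription factor gene Tcf15 (1.79), both found in capillaries that take up fatty acids, were also higher. In the other direction, the fatty acid binding protein gene Fabp4 was at 579, 534, 1183 and 1040.3 CPM against 5508, 4047, 6618 and 5868 CPM, a log2 fold change of -2.83 (SE 0.12, adjusted p = 1.49e-07). The water channel gene Aqp1 was at 423, 373, 374 and 333 CPM against 1336, 1387, 1465 and 1372 CPM, a log2 fold change of -1.94 (SE 0.070, adjusted p = 4.15e-08). For each of these 4 genes with CPM values the capillary and venous libraries did not overlap. The fatty acid transporter gene Cd36 was at 97.3, 122, 99.5 and 104 CPM against 65.0, 70.1, 141 and 120.1 CPM and did not pass the test (log2 fold change 0.097 (SE 0.18, adjusted p = 0.83)).

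Leukocyte adhesion and chemokine genes went mostly the other way, with 2 of 16 higher and 8 lower (median log2 fold change -0.51). The genes used to define venous cells include Selp and Sele, themselves leukocyte adhesion genes. The direction of this list is therefore not independent of the class rule. Icam1, the ligand of leukocyte integrins, was at 192, 263, 158 and 167 CPM in capillary cells and 898, 937, 585 and 514 CPM in venous cells, a log2 fold change of -1.95 (SE 0.099, adjusted p = 5.72e-07). Vcam1 (-1.72), the chemokine gene Cxcl1 (-0.77), the cytokine gene Il6 (-0.57) and the receptors Il1r1 (-1.90), Il6st (-1.63) and Tnfrsf1a (-0.77) were lower too, with the junction gene Jam2 (-0.44). The exceptions were 2 chemokines. Cxcl12, the ligand of Cxcr4, was at 1919.8, 1787, 1872 and 1576 CPM against 394, 317, 364 and 376 CPM, a log2 fold change of 2.25 (SE 0.072, adjusted p = 1.94e-08), and Cx3cl1 was higher by 0.54. The 10 largest differences downward were Csf3 (-4.73), which encodes the granulocyte growth factor, Tll1 (-4.42), Rasgef1a, Stc2, Cadm3, Gm30191, Pgm5, Hunk, the leukotriene receptor gene Cysltr1 (-3.48) and Nt5e (-3.31), whose product makes adenosine, with log2 fold changes from -4.73 to -3.31. Of 19 cell division genes 0 passed the test in either direction with edgeR, 0 did so with DESeq2 and 0 had an unadjusted p under 0.05. Osteoprotegerin (Tnfrsf11b), the decoy receptor that blocks the osteoclast factor RANKL, was at 12.4, 17.9, 12.7 and 21.4 CPM against 0.951, 1.29, 3.54 and 5.91 CPM, a log2 fold change of 2.49 (SE 0.36, adjusted p = 0.000891), while RANKL itself (Tnfsf11) had 1, 0, 0 and 3 UMIs in capillary cells. Without the cells holding strong markers of other types, Tnfrsf11b was not among the genes past the test. It either failed the test or had too few UMIs to be fitted.

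Of the remaining lists, antigen presentation and interferon genes had 4 of 20 higher and 1 lower than in venous cells, and transcytosis and caveolae genes 3 of 14 higher and 5 lower. Hypoxia and glycolysis genes had 2 of 20 higher and 1 lower, immediate early and heat shock genes 4 of 20 higher and 5 lower, signals to other cells 6 of 19 higher and 4 lower, and pan-endothelial genes outside the rule 4 of 20 higher and 3 lower. Without the cells holding strong markers of other types, antigen presentation and interferon genes had 9 of 20 higher and 1 lower. Pan-endothelial genes then had 8 of 20 higher and 3 lower. The numbers of genes higher and lower were 711 and 808 when cells with strong markers of other types were left out. Without the SAR131675 library they were 307 and 429, and with every cell thinned to 1500 UMIs 339 and 421. The part that the greater depth of venous cells had in these differences was not tested beyond this thinning.

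Against arterial cells the capillary cells differed in fewer genes, 165 higher (1.58%) and 349 lower (3.34%) of 10451 tested by the same method. They held less RNA of several Notch genes and more of Apln. Of 14 Notch genes 8 were lower and 0 higher in capillary cells (median log2 fold change -0.65 against 0.019 over all genes). DESeq2 called 5 lower and 0 higher, and 0 were higher at an unadjusted p under 0.05. Hey1, a Notch target that holds arterial identity, was at 29.3, 25.4, 25.9 and 17.1 CPM in capillary cells and 115, 84.0, 88.9 and 117 CPM in arterial cells, a log2 fold change of -2.03 (SE 0.17, adjusted p = 0.000116). The ligand gene Jag1 (-1.22), Hey2 (-1.97), Heyl (-1.03), Jag2 (-0.83), Notch4 (-0.75), Notch3 (-1.22) and Dll4 (-0.55) were the other members. After every cell was thinned to 1500 UMIs and classed again, the arterial class held only 21, 16, 16 and 8 cells. Notch3 then stood at 0.94. Notch3 is also a pericyte gene, and the 6 pericyte and smooth muscle markers summed to 1760, 2353, 3056 and 2346 CPM in arterial cells, above the capillary cells in each library. Without the cells holding strong markers of other types, Jag1 (-1.91), Hey1 (-1.89), Jag2 (-0.97) and Notch4 (-0.71) still passed the test, Dll4 did not (-0.31, adjusted p = 0.31), and Notch3, Hey2 and Heyl had too few UMIs to be fitted. Dll4, Jag2, Hey1, Heyl and Notch4 lay above the venous and below the arterial level. The genes used to define arterial cells include Gja4, Gja5 and Sox17, which are themselves linked to Notch signaling.

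Apln was the sprouting gene with the largest difference upward, at 25.2, 43.3, 17.3 and 43.9 CPM in capillary cells and 1.61, 0, 5.44 and 6.53 CPM in arterial cells, a log2 fold change of 3.68 (SE 0.48, adjusted p = 0.00179). The 4 capillary libraries lay above the 4 arterial ones. Its receptor gene Aplnr was higher as well (1.80), and the sprouting genes Igfbp3 (-1.74), Unc5b (-1.12) and Mcam (-0.57) were lower. Esm1 did not pass the test against arterial cells, where it was at 54.9, 86.4, 67.1 and 88.1 CPM (log2 fold change 0.79 (SE 0.21, adjusted p = 0.0611)). Without the cells holding strong markers of other types it did pass, with 7 of 17 sprouting genes then higher and 2 lower. Penk, at 47.4, 321, 437 and 271 CPM in arterial cells, and Itm2a, at 93.6, 174, 272 and 282 CPM there, overlapped the capillary range. Vegfc, the ligand of VEGFR3, was at 23.7, 16.4, 10.4 and 6.95 CPM in capillary cells and 246, 155, 36.3 and 60.4 CPM in arterial cells, a log2 fold change of -3.04 (SE 0.22, adjusted p = 3.89e-05), and the capillary and arterial libraries did not overlap. Of 17 capillary and fatty acid handling genes 3 were higher, Aqp1 (1.16), Gpihbp1 (0.93) and Cd300lg (0.90), and 0 were lower (edgeR; 0 also by DESeq2, and 6 at an unadjusted p under 0.05). After thinning, which left 8 to 21 arterial cells in a library, Gpihbp1 stood at -1.06.

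The other large differences upward were the hemoglobin genes Hbb-bt (4.59), Hba-a2 (4.33), Hba-a1 (3.78) and Hbb-bs (3.30), which red cells make, and Igfbp6, Wfdc17, Ccn5, Bbox1 and Tnfsf8, between 2.03 and 2.23. In arterial cells the fibroblast markers summed to 729, 376, 1483 and 1746 CPM, below the capillary sum in each library. Their keratinocyte markers summed to 1819, 2952, 1844 and 5147 CPM, below the capillary sum in every library but the control diet one. Without the cells holding strong markers of other types, Hbb-bs (0.60, adjusted p = 0.193), Hba-a1 (0.59, adjusted p = 0.364), Hba-a2 (0.81, adjusted p = 0.198) and Wfdc17 (0.42, adjusted p = 0.532) no longer passed. The 10 largest differences downward were Gkn3 (-5.47), Tox2, Nebl, St8sia6, Fam107a, Alpl, Egfl8, Car7, Vegfc and Tmem178, from -5.47 to -2.84. Among leukocyte genes 1 of 16 was higher, the receptor Il6st (0.41), and 5 were lower, including the scavenging receptor gene Ackr3 (-0.83) and Cx3cl1 (-1.04). Basement membrane genes had 1 of 20 higher, Col15a1 (0.81), and 5 lower. Without the cells holding strong markers of other types this list had 8 of 20 higher, Col4a1 and Col4a2 among them, and 4 lower. Signals to other cells had 1 of 19 higher, Igf1 (1.18), and 5 lower, among them the endothelin gene Edn1 (-1.99). Wnt genes had 1 of 9 higher and 1 lower, BMP and TGF beta genes 1 of 18 higher and 3 lower, and antigen presentation and interferon genes 0 of 20 higher and 3 lower, with 0 higher by DESeq2 or at an unadjusted p under 0.05. Angiopoietin, Tie and apelin genes had 2 of 9 higher, Apln and Aplnr, and 1 lower. The remaining lists had at most 1 gene higher and at most 3 lower. Without the cells holding strong markers of other types, VEGF genes had 3 of 5 higher and 1 lower. Pan-endothelial genes then had 6 of 20 higher and 3 lower. The arterial class was the smallest, with 436 cells, and the counts moved with the processing: without the SAR131675 library 32 genes were higher and 77 lower, after thinning 22 and 29, and without the cells holding strong markers of other types 307 and 338.

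Capillary and lymphatic cells differed most in number of genes, with 1316 higher (12.8%) and 1191 lower (11.5%) in capillary cells of 10313 tested. Blood capillary cells held the VEGF receptors Flt1 (5.44) and Nrp1 (5.30), whereas Flt4, the target of SAR131675, was at 23.2, 21.7, 14.4 and 11.2 CPM in capillary cells and 482, 503, 591 and 540.4 CPM in lymphatic cells, a log2 fold change of -4.88 (SE 0.22, adjusted p = 6.98e-06). All 4 capillary libraries had little Flt4 RNA, with at most 45 UMIs each. Vegfc was higher in capillary cells (2.35), and Nrp2 (-0.82), which pairs with Flt4, and Vegfb (-1.51) were lower. Esm1 had 0 UMIs in lymphatic cells and was at least 209-fold higher in capillary cells, taking 3 UMIs over the group as the floor. By the same floor Sez6l2 was at least 44.1-fold and Ces2e at least 19.4-fold higher. Penk (7.24), the urea transporter gene Slc14a1 (6.96), Apln (6.93), Akr1c14, Prnd, C1qtnf9 and Gm12002 (6.26) made up the rest of the 10 largest log2 fold changes upward.

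Antigen presentation and interferon genes were the list with the most members higher than in lymphatic cells, 13 of 20, with 1 lower (median log2 fold change 1.14 against 0.0083 over all genes). The class I genes B2m (1.24), H2-K1 (1.40) and H2-D1 (0.43), the transporter Tap1 (1.44) and Ly6c1 (4.72) and Ly6a (3.61) were among them, and Ifitm3 (-0.44) was lower. Of 17 capillary and fatty acid handling genes 10 were higher and 2 lower, with Rgcc (2.76), Cd36 (2.51), Fabp4 (2.32) and Aqp1 (2.21) among those higher. Signals to other cells had 10 of 21 higher and 4 lower. They included the stem cell factor gene Kitl (3.88), Pdgfb (3.49), the CSF1 receptor ligand Il34 (2.07) and Tnfrsf11b (5.15), and those lower included Hgf and Rspo3. Without the cells holding strong markers of other types, Il34, Tnfrsf11b and Rspo3 were not among the genes past the test. Each either failed the test or had too few UMIs to be fitted. Sprouting genes had 9 of 17 higher and 4 lower, basement membrane genes 9 of 20 higher and 3 lower, leukocyte genes 8 of 17 higher and 3 lower, and cell division genes 4 of 15 higher (Cdk1, Pclaf, Nusap1 and Top2a) and 0 lower (2 higher and 0 lower by DESeq2, 0 lower at an unadjusted p under 0.05). Beside these, the pericyte and smooth muscle markers summed to 44.3, 94.8, 481 and 173 CPM in lymphatic cells, below the capillary sum in each library. Without the cells holding strong markers of other types, 11 of 16 sprouting genes were higher and 4 lower, and 12 of 20 basement membrane genes higher and 5 lower, while 2 cell division genes could be fitted, neither past the test. The keratinocyte markers summed to 2663, 5280, 3279 and 5516 CPM in lymphatic cells, below the capillary sum in every library but the control diet one, and their part was not tested. Immediate early and heat shock genes had 9 of 20 higher and 3 lower, and pan-endothelial genes 10 of 20 higher and 4 lower. Without the cells holding strong markers of other types, 14 and 15 of 20 were higher in these lists and 3 lower in each. Downward, the chemokine gene Ccl21a (-9.72), Reln (-9.63) and the hyaluronan receptor gene Lyve1 (-7.48), textbook lymphatic genes, led with Sh3gl3, Nts, Dtx1 and Tc2n. Duoxa2, Prox1os and Klrb1f had 0 UMIs in capillary cells and were at least 59.7, 53.5 and 33.0-fold lower. Lymphatic cells were picked by Prox1 and Mmrn1 in the same cells. Without the SAR131675 library 845 genes were higher and 772 lower. The 3 class comparisons share the capillary sums, so their lists are not independent.

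**Figure D2:**
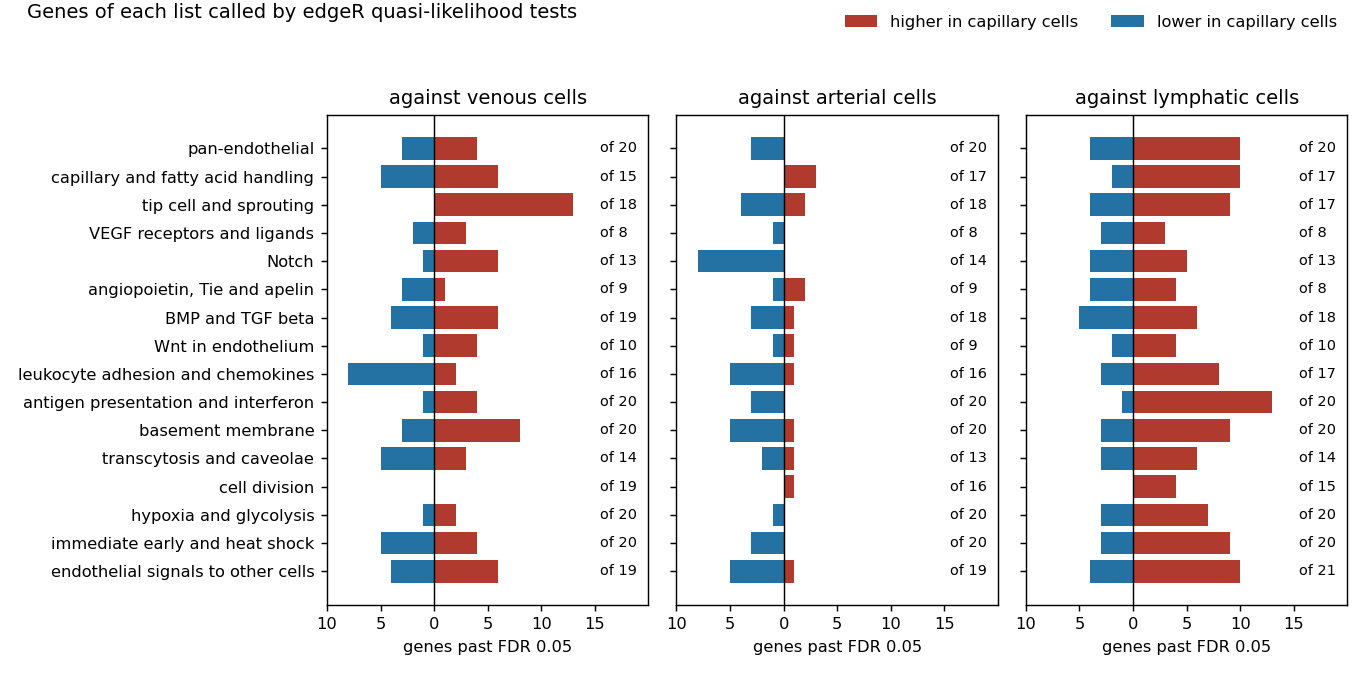
Number of genes of each of 16 lists past an adjusted p of 0.05 (edgeR), higher in capillary cells to the right and lower to the left, against venous, arterial and lymphatic cells. The sprouting list has 13 genes to the right and 0 to the left against venous cells, and the Notch list 0 to the right and 8 to the left against arterial cells.

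Among themselves the capillary cells were not uniform. Leiden clustering without the 15 rule genes gave 12 clusters of 22 to 171 cells. Of these, 7 were led by genes of other cell types and held 406 of the 1012 cells (40.1%), or 31.3, 29.8, 46.0 and 47.6% of the 4 libraries. Cluster 3 was led by the pericyte genes Rgs5, Abcc9, Notch3 and Pdgfrb, cluster 4 by the basal keratinocyte genes Krt15 and Krt5, cluster 8 by the fibroblast and joint genes Mmp3, Prg4 and Dcn, and cluster 9 by the cornified layer genes Flg and Lor. Igfbp6, higher against arterial cells, stood at 712 CPM in cluster 8 and 23.5 CPM in the other capillary cells. Cluster 10 was led by hemoglobin genes, cluster 11 by Wfdc17 and Krt10, and cluster 12 by the antigen presentation and complement genes Cd74, H2-Aa and C1qa of macrophages. Flt1, an endothelial gene outside the rule, stood at 37.5 CPM in cluster 9 and 149 CPM in cluster 11. In the 5 clusters not led by genes of other cell types it stood at 1289 to 3194 CPM. In clusters 9 and 11 the name capillary rests largely on the rule. Clusters 3, 10 and 12 held more Flt1, at 1076, 1106 and 969 CPM, and clusters 4 and 8 stood at 384 and 418 CPM. The name capillary is uncertain in clusters 4 and 8 as well. In cluster 4, 94.2% of the cells met the definition of a keratinocyte. The 6 fibroblast markers summed to 12390 CPM in cluster 8. No doublet caller was run, and the part of doublets was not tested.

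The other 5 clusters held 606 cells and had more Flt1 RNA than any of the 7. Clusters 6 and 7 differed in some of the sprouting genes, as a description only since the clusters were built from these genes. Cluster 6 (96 cells) was led by Mdga2, Penk, the prohormone convertase gene Pcsk1, the mechanically gated channel gene Piezo2, Itm2a and Esm1. Penk was at 2915 CPM there and 4.13 CPM in cluster 7, Itm2a at 1562 and 66.1 CPM, and Esm1 at 703 and 82.7 CPM. Penk also stood at 738 CPM in cluster 3 and 487 CPM in cluster 8, both led by genes of other cell types. Cluster 7 (71 cells) was led by Igfbp3, Prnd, Npy, Ccl21a, Apln and Gpihbp1, of which Npy had UMIs in 1 library. It also held lymphatic RNA, the 6 lymphatic markers, Ccl21a among them, summing to 149 CPM there and to 1.25 to 5.13 CPM in clusters 1, 2, 5 and 6, and the part of that RNA was not tested. Apln was at 192 CPM there and 1.66 CPM in cluster 6, Igfbp3 at 1273 and 81.4 CPM, Cxcr4 at 55.8 and 4.99 CPM and Pgf, a VEGF family ligand, at 39.3 and 0 CPM. Of the other sprouting genes, Dll4 stood at 155 CPM in cluster 6 and 157 CPM in cluster 7. Lamb1 stood at 321 and 320.4 CPM, Pdgfb at 492 and 345 CPM, Nid2 at 83.1 and 184 CPM, Ramp3 at 51.5 and 20.7 CPM and Unc5b at 8.31 and 41.3 CPM. Dll4 (247 CPM) and Angpt2 (110.3 CPM) were highest in cluster 5, and Cxcr4 (104 CPM) in cluster 12, led by macrophage genes. Capillary genes also differed between clusters 6 and 7, with Rgcc at 929 CPM in cluster 6 and 116 CPM in cluster 7, and Gpihbp1 at 63.2 and 325 CPM and Aqp1 at 74.8 and 792 CPM. Cluster 6 held 13.0, 14.4, 5.70 and 7.43% of the capillary cells and cluster 7 9.57, 5.32, 6.04 and 7.09%.

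Clusters 1, 2 and 5 differed in share between the experiments. Cluster 2 (171 cells), led by Gadd45g, Ier3, Pltp and the tight junction gene Cldn5, held 4.35, 4.79, 25.8 and 25.3% of the capillary cells of the 4 libraries. Cluster 5 (97 cells), led by Tnfsf8, Adamts9 and the retinol-esterifying enzyme gene Lrat, held 19.6, 21.3, 2.35 and 1.69%, and cluster 1 (171 cells), led by Dipk2b and the substance P receptor gene Tacr1, 22.2, 24.5, 14.1 and 10.8%. Cluster 2 was mostly LNR and sham cells and cluster 5 mostly cells of both diet libraries, so these clusters cannot be told apart from the experiments, which also differ in Cell Ranger version and in mitochondrial UMIs (medians of 1.64, 1.45, 3.48 and 3.49%). Within each experiment the shares of clusters 1, 2 and 5 in treated and control libraries had overlapping intervals. Cluster 9 was the exception among the 12, at 1.68% (0.55 to 3.87%) of LNR and 9.12% (6.097 to 13.0%) of sham cells.

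**Figure D3:**
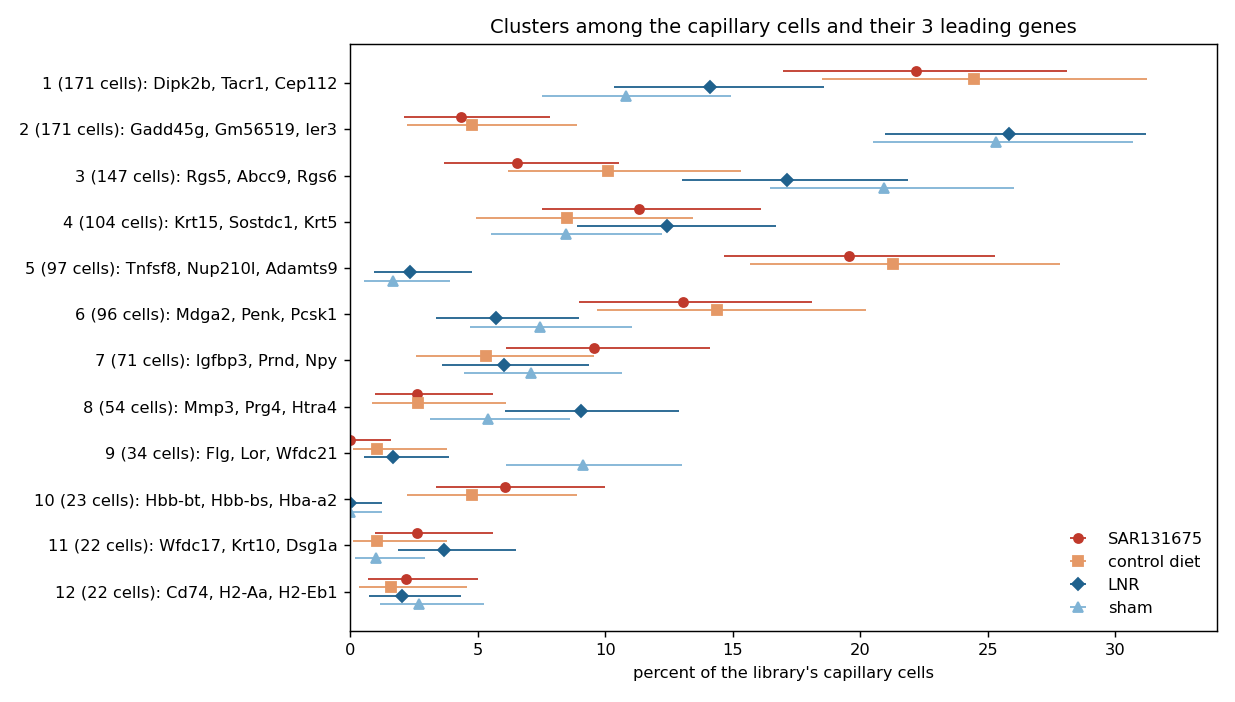
Share of each library's capillary cells in each of 12 clusters, in percent with exact 95% binomial intervals, with the 3 leading genes of each cluster. Cluster 2 holds 25.8 and 25.3% of the LNR and sham cells and 4.35 and 4.79% of the SAR131675 and control diet cells. Of the 34 cells in cluster 9, 27 are sham cells, and cluster 10 has cells of the diet libraries only.

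Detection in single cells gives another view of the same cells. Esm1 had a UMI in 30.0, 26.6, 19.8 and 16.6% of the capillary cells, and in 0.00976 to 0.107% of keratinocytes, which should lack it and had median UMI counts of 12494, 12091, 8712 and 8482. Penk had a UMI in 13.5, 12.2, 14.8 and 10.47% of the capillary cells and in 3.41 to 4.57% of keratinocytes, and Itm2a in 33.9, 28.7, 36.6 and 30.1% and 4.39 to 8.21%. With every cell thinned to 1500 UMIs, Esm1 was detected in 12.7, 13.7, 11.5 and 8.73% of capillary cells, in 0 of 1186 venous cells, which allows a share of up to 0.253% with a UMI at this depth, and in at most 0.0236% of keratinocytes. Thinned, Penk was detected in 8.64, 8.93, 11.5 and 8.00% of capillary cells and at most 1.16% of keratinocytes. Unthinned, Esm1 had a UMI in 3 of 295, 5 of 251, 1 of 321 and 0 of 338 venous cells. Among capillary cells with Esm1, 37.7, 42.0, 42.4 and 36.7% also had Penk, against 3.11, 1.45, 7.95 and 5.26% of those without. For Itm2a the shares were 69.6, 70.0, 78.0 and 69.4% against 18.6, 13.8, 26.4 and 22.3%. Itm2a was in 93.5, 95.7 and 90.9% of capillary cells with Penk and in all 31 of those in the sham library, while Apln was in 6.45, 0, 4.55 and 0% of cells with Penk and in 10.6, 8.48, 5.12 and 5.28% of those without. Apln was in 8.70, 12, 8.47 and 10.2% of cells with Esm1, 5 or 6 cells a library, and in 10.6, 5.80, 4.18 and 3.64% of those without. Cells with Esm1 were deeper, with median UMI counts of 8488, 8110.5, 5384 and 5261 against 6728, 5581.5, 3988 and 3979. After thinning, Penk was in 34.8 to 37.5% of cells with Esm1 and 4.69 to 8.10% of those without, and Itm2a in 80 to 90.6% of cells with Penk and 11.1 to 14.9% of those without. The 4 libraries gave like shares, so the joint presence of Esm1, Penk and Itm2a, counted in pairs only, did not rest on 1 library. These counts include cells with markers of other types, and were not repeated without them. Penk had a UMI in 59 of 96 cells of cluster 6. It also had a UMI in 32 of 147 cells of cluster 3, led by pericyte genes, and 17 of 54 of cluster 8, led by fibroblast and joint genes.

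States were counted as cells with 2 or more of 6 genes. The tip state (Esm1, Apln, Angpt2, Cxcr4, Pgf and Kcne3) held 12.2, 15.4, 10.4 and 5.74% of capillary cells, 4.07, 5.18, 4.36 and 1.78% of venous cells, 9.76, 8.93, 11.5 and 9.76% of arterial cells and 0.143 to 0.409% of keratinocytes. After thinning it was 2.73, 2.38, 1.79 and 1.82% of capillary cells and 0.344, 0.408, 0.314 and 0% of venous cells, with 4 to 6 capillary cells in each library, too few to order the libraries. Thinned arterial cells stood at 0.610, 1.79, 2.56 and 1.27%, with 1 or 2 cells in each library. The fatty acid state (Car4, Gpihbp1, Cd36, Cd300lg, Aqp7 and Tcf15) held 32.2, 32.4, 27.2 and 28.4% of capillary cells, 22.0, 21.1, 21.2 and 18.9% of venous cells, 35.4, 35.7, 34.6 and 37.8% of arterial cells and 0.0947 to 0.319% of keratinocytes. Thinned, it was 4.55, 7.74, 8.60 and 6.18% of capillary, 1.72, 3.67, 1.89 and 4.82% of venous and 3.66, 4.46, 7.69 and 6.33% of arterial cells. The dividing state (Mki67, Top2a, Cdk1, Birc5, Ube2c and Tpx2) held 4.35, 4.26, 4.70 and 11.8% of capillary cells, but keratinocytes stood at 18.9, 16.2, 20.4 and 23.03%, above the capillary share in every library, so these shares are not read as division of capillary cells. Thinned, the capillary shares were 2.27, 2.98, 2.51 and 1.82%.

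The first pair of libraries asked how capillary cells look when VEGFR3 is inhibited through the diet. Of 8053 genes with at least 50 UMIs in the pair, 125 (1.55%) were at least 2-fold higher in the SAR131675 library and 76 (0.944%) at least 2-fold lower. There was 1 library per diet, so these are ratios of counts with exact 95% intervals for counting error and no test. The intervals of Flt1, Flt4 and Esm1 did not reach 2-fold, though that of Flt4 was wide. Flt1 stood at 2037 against 2095 CPM, a log2 ratio of -0.040 (-0.11 to 0.030), Flt4 at 23.2 against 21.7 CPM, a log2 ratio of 0.097 (-0.61 to 0.82), and Esm1 at 169.9 against 140.4 CPM, a log2 ratio of 0.28 (0.013 to 0.54). Of 18 sprouting genes 9 had ratios above 0 and 9 below (median log2 ratio -0.0040 against -0.0059 over all genes), and of 8 VEGF genes 5 and 3. Among list genes with at least 50 UMIs a 2-fold ratio was reached by the transcription factor gene Sox18, at 158 against 74.7 CPM (1.08 (0.75 to 1.42)), and downward by Bmp2, at 17.0 against 37.3 CPM (-1.14 (-1.82 to -0.47)), Edn1, at 37.1 against 79.9 CPM (-1.11 (-1.56 to -0.66)), and Ccn2, at 89.6 against 183 CPM (-1.03 (-1.32 to -0.74)). The same ratio over all other kept cells was 0.92 for Sox18, -0.030 for Bmp2, 0.22 for Edn1 and 0.036 for Ccn2. Sox18 was also higher over the other cells of the library.

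The immediate early and heat shock genes, which cells induce within minutes of stress, were lower in the SAR131675 library with few exceptions. Of 20 genes 17 had intervals under 0 and 3 above it, with a median log2 ratio of -0.26 against -0.024 for the same genes in all other kept cells. The heat shock gene Hspa1a was at 920.0 against 1417 CPM, a log2 ratio of -0.62 (-0.72 to -0.53), and the flow-responsive factor gene Klf2 at 547 against 783 CPM, a log2 ratio of -0.52 (-0.64 to -0.39). Hspa1b (-0.59 (-0.67 to -0.50)), Atf3 (-0.52 (-0.67 to -0.37)), Nr4a1 (-0.49 (-0.71 to -0.27)), Fosb (-0.45 (-0.62 to -0.28)) and Jun (-0.44 (-0.54 to -0.34)) followed, and Dusp1 (0.28 (0.12 to 0.44)), Ier2 (0.19 (0.0066 to 0.36)) and Zfp36 (0.16 (0.021 to 0.31)) were the 3 above 0. No gene of the list reached 2-fold. The median stayed below 0 in every alternative, from -0.46 to -0.11. Among the 1741 genes with at least as many UMIs as the least abundant of the list, 22.2% had intervals below 0 and 17.8% above. In the LNR pair the list had 16 of 20 ratios above 0 (6 intervals above 0 and 1 below, against 16.7 and 11.6% of the 1061 genes at least as abundant, and 5.55 and 4.66% of all genes with at least 20 UMIs) and a median of 0.082, against 0.19 in all other kept cells, and this median was between -0.18 and 0.058 in the alternatives.

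**Figure D4:**
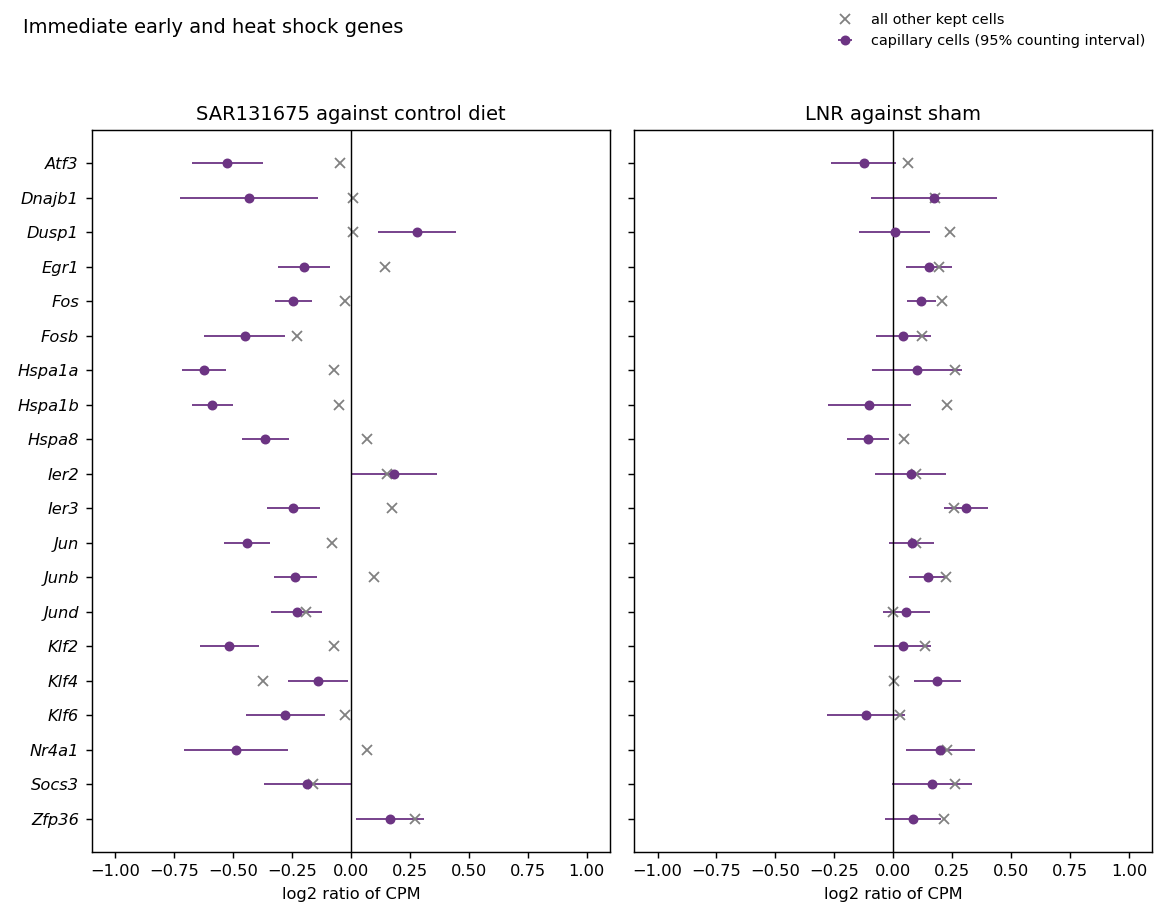
Log2 ratio of CPM for 20 immediate early and heat shock genes in capillary cells, as points with exact 95% counting intervals, and in all other kept cells, as crosses, for SAR131675 against control diet and LNR against sham. In the diet pair 17 of 20 points lie left of 0 with their intervals, and in the LNR pair 16 of 20 lie right of it, 6 of them with their intervals.

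Signals to other cells had 16 of 19 ratios below 0 in the SAR131675 library (median -0.23, 0.036 in the other cells), though 6 intervals lay below 0 and 2 above, against 9.04 and 8.88% of all genes with at least 20 UMIs. Such shares rise with UMIs, to 22.2 and 17.8% among the 1741 genes above. No share matched in UMIs was computed for the lists in this paragraph. Pdgfd was at 239.9 against 337 CPM (-0.49 (-0.68 to -0.30)) and Kitl at 547 against 615 CPM (-0.17 (-0.30 to -0.036)). Angiopoietin, Tie and apelin genes had 8 of 9 below 0 (median -0.29), with 3 intervals below and 1 above. Angpt2 was at 35.01 against 63.5 CPM (-0.86 (-1.34 to -0.38)) and, above 0, Aplnr at 90.6 against 57.5 CPM (0.66 (0.26 to 1.06)). BMP and TGF beta genes had 13 of 18 below 0, with 8 intervals below and 2 above. The coreceptor Tgfbr3 was at -0.47 (-0.62 to -0.32), while the target Id1 was at 0.36 (0.20 to 0.53). Notch genes had 9 of 13 below 0, of which Dll4, at 125 against 184 CPM (-0.56 (-0.82 to -0.30)), was the 1 gene whose interval did not reach 0. The remaining lists had medians between -0.13 and 0.28. Apart from these lists, the largest ratios belonged to genes of other cell types. Upward they were the keratinocyte genes Sostdc1 (3.63 (2.46 to 5.11)), Krt17, Dsg1a and Dapl1 and the myeloid genes Pf4, Lyz2 and Apoc1, with Igfbp2, and downward Igfbp6 (-3.67 (-4.55 to -2.90)), the cornified layer genes Flg, Hrnr and Lor, Igfbp5, Cygb, Zbtb16 and Plekho2. With strong carriers of other markers left out, 46 genes were 2-fold higher and 47 lower, and the ratios of Apoc1 (-0.28), Igfbp5 (1.98) and Lor (0.30) had the opposite sign.

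The second pair compared LNR with sham. Of 7455 genes with at least 50 UMIs, 48 (0.644%) were at least 2-fold higher in the LNR library and 63 (0.845%) at least 2-fold lower. Flt1, at 633 against 576 CPM (0.14 (0.014 to 0.26)), and Cxcl12, at 1872 against 1576 CPM (0.25 (0.18 to 0.32)), differed by much less than 2-fold. Flt4 was at 14.4 against 11.2 CPM (0.36 (-0.54 to 1.27)), an interval that includes 2-fold. Igfbp3 was lower after LNR, at 168 against 304 CPM, a log2 ratio of -0.86 (-1.07 to -0.65), against 0.32 in all other kept cells, and Gpihbp1 was at 63.3 against 91.5 CPM (-0.53 (-0.89 to -0.18)). Igfbp3 had a UMI in 46 of 298 LNR and 62 of 296 sham capillary cells. Of the Igfbp3 UMIs of all capillary cells, 60.6% were in 30 cells of cluster 7. Bmp2 was higher, at 65.0 against 40.1 CPM (0.70 (0.26 to 1.14)), opposite to the diet pair. Cell division genes had 15 of 19 ratios below 0 (median -0.19, -0.12 in the other cells), with Mki67 at 31.6 against 63.7 CPM (-1.01 (-1.50 to -0.54)) and Top2a at -0.54 (-0.95 to -0.13). With 4 endothelial genes required, the Mki67 ratio was -0.12. Of the Mki67 UMIs of all capillary cells 60.5% were in cluster 4 and 21.9% in cluster 9, both led by keratinocyte genes, and 27 of the 34 cells of cluster 9 were sham cells. Sprouting genes had 8 of 19 above 0 (median -0.096, 0.26 in the other cells), pan-endothelial genes 16 of 20 above 0 (median 0.13, 0.17 in the other cells) and VEGF genes 7 of 9. Intervals lay above 0 for 1 sprouting, 6 pan-endothelial, 1 VEGF and 0 cell division genes, and below 0 for 4, 0, 0 and 3. Over all genes with at least 20 UMIs, 5.55% of intervals lay above 0 and 4.66% below. Among the 1061 genes at least as abundant as the immediate early list, these shares were 16.7 and 11.6%. No share matched in UMIs was computed for these lists. The other lists had medians between -0.0077 and 0.18. The largest ratios were again those of other cell types: upward the matrix protease gene Mmp3 (7.12 (5.89 to 8.75)), 4 hemoglobin genes (Hbb-bt, Hba-a1, Hbb-bs and Hba-a2, 3.30 to 3.63) and the mast cell genes Mcpt4, Cma1 and Cpa3, and downward Slpi (-5.81 (-8.88 to -3.93)), Krt6a, Wfdc18, Wfdc17 and the class II genes H2-Eb1, H2-Ab1, H2-Aa and Cd74. Fn1 (1.68 (1.53 to 1.85)) and Vcam1 (1.06 (0.18 to 2.0), and -0.11 after thinning) also passed 2-fold. With strong carriers of other markers left out, 11 genes were 2-fold higher and 16 lower, and Hba-a1 (-0.22), Wfdc17 (0.010), Cd74 (1.06) and Fn1 (-0.12) had the opposite sign.

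The pairs share no library, and 10 genes were named as having the largest ratios of the same sign in both. Rbp7, a retinol binding protein gene of capillary and fat endothelium, was higher in both treated libraries, at 151 against 83.6 CPM (0.85 (0.53 to 1.18)) with SAR131675 and 101 against 50.3 CPM (1.00 (0.63 to 1.38)) after LNR. Over all other kept cells its ratios were -0.47 and -0.086. Apln was lower in both, at 25.2 against 43.3 CPM (-0.78 (-1.36 to -0.21)) and 17.3 against 43.9 CPM (-1.35 (-2.001 to -0.73)), against 0.11 and 0.34 over all other kept cells. These values rest on 49 and 58 UMIs in the diet pair and 30 and 82 UMIs in the LNR pair. The number of cells with an Apln UMI did not follow them at full depth, at 23 of 230 against 14 of 188 (10% and 7.45%) and 15 of 298 against 14 of 296 (5.03 and 4.73%). After thinning to 1500 UMIs the shares were 1.82 against 2.38% and 1.79 against 3.64%, with overlapping 95% intervals in both pairs. Of the Apln UMIs of all capillary cells, 42.5% were in 15 cells of cluster 7. For Rbp7 the shares of cells with a UMI were 33.5 against 25.5% and 23.2 against 19.3%, beside 14.5 to 19.5% of keratinocytes. Tmem252, also lower, was at -1.30 (-1.75 to -0.86) and -0.62 (-1.13 to -0.12), and the ratios of Rnf168 (-0.55 (-1.02 to -0.091) and -0.71 (-1.33 to -0.12)) and Anapc2 (-0.56 (-1.15 to 0.021) and -0.50 (-1.06 to 0.045)) were nearer to 0. Upward, the keratinocyte lipid gene Elovl4 had 1.49 (0.89 to 2.13) and 1.09 (0.90 to 1.28), and AW112010, Pdcl3 and Ap1s2 lay between 0.54 and 0.71 in both pairs. Col1a1, a fibroblast collagen gene, was lower in both (-1.53 (-1.82 to -1.25) and -1.22 (-1.41 to -1.04)), and its ratios were 0.081 and 0.55 without the strong carriers of other markers. With 1 library on each side the spread between animals or digits behind these ratios is unknown. Over the alternatives tried, the ratio of Rbp7 lay between 0.57 and 1.12 in the diet pair and between 0.89 and 1.30 in the LNR pair, and that of Apln between -1.01 and -0.56 and between -2.33 and -0.45.

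**Figure D5:**
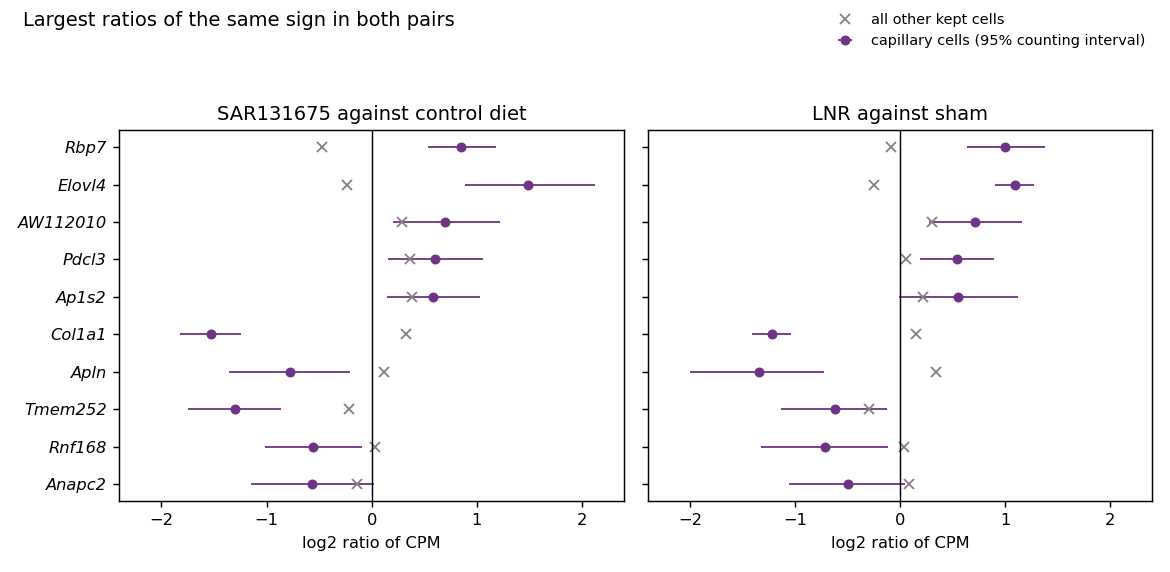
Log2 ratio of CPM in capillary cells, as points with exact 95% counting intervals, and in all other kept cells, as crosses, for the 10 genes with the largest ratios of the same sign in both pairs. Rbp7 lies at 0.85 and 1.00 and Apln at -0.78 and -1.35.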

How the data were processed

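The 4 libraries were prepared with 10x Genomics chemistry, and the deposited files hold raw UMI counts per gene (33696 genes) and barcode that the authors made with Cell Ranger. Per the file headers the version was 6.1.2 for LNR and sham and 8.0.1 for SAR131675 and control diet, whereas the submitters' processing notes list 6.1.2 and the mouse genome GRCm39 for all. Groups were taken from the labels, which give each library a batch of its own. Barcodes with 200 to 5500 genes, at most 30000 UMIs and at most 10% mitochondrial UMIs were kept. No doublet caller was run.

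Classes were set by the rule genes, venous or arterial cells having 2 or more of 4 genes of that class and fewer than 2 of the other, and lymphatic cells both Prox1 and Mmrn1. Keratinocytes had 2 or more of 6 keratinocyte markers at 2 or more UMIs each. UMIs were summed per library and class and tested with edgeR (version 4.0.16, R 4.3.3; filterByExpr, TMM, quasi-likelihood F test, library as a block, Benjamini-Hochberg adjustment over all genes fitted). Counts over all genes include the rule genes. Where nothing else is said, values in parentheses after a gene in these comparisons are log2 fold changes. LNR and sham digits came from opposite limbs of operated mice, so the 4 libraries are not 4 separate pools of animals, and p-values measure the spread between these libraries.

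With 1 library per condition, levels were compared as CPM of summed UMIs with exact conditional 95% intervals of the ratio, without a test. These intervals and the floor of 3 UMIs cover counting error only. List medians in a pair used genes with at least 20 UMIs. Capillary cells were clustered without the 15 rule genes (scanpy 1.11.5, Leiden on 2000 variable genes, 20 components, 15 neighbours, resolution 0.7). Thinning drew 1500 UMIs from each cell, applied the class rules again where classes were summed, and left out shallower cells.

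Named genes were the up to 4 members of each list with the most UMIs, the 10 largest and 10 smallest log2 fold changes of each class comparison among genes past the test in the same direction in 4 libraries, the 8 largest ratios in each direction of each pair with at least 100 UMIs, and the 5 largest in each direction shared by both pairs. Other list genes given with values were chosen after their values were seen. Genes without a symbol, mitochondrial genes and the rule genes were left out. The members and lists were chosen with earlier results of these data known. The fits and intervals were tested on simulated data. Alternatives were DESeq2 (1.42.0), other size factors, filters, rules and scales, thinning, and leaving out libraries or cells with markers of other types. Coordinates and sequences were not used here.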

Additional observations from a re-analysis of the deposited data

How the results depend on the processing

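The class counts depended on the processing, and so did the genes named for size against arterial cells. The order below is genes higher and lower against venous, then arterial, then lymphatic cells, with 579, 738, 165, 349, 1316 and 1191 in the reported fits. DESeq2 gave 353 and 523, 99 and 262, and 1049 and 920, and size factors of another kind 594 and 718, 165 and 354, and 1322 and 1178. Thinning to 1500 UMIs gave 339 and 421, 22 and 29, and 680 and 506. The arterial class then held 21, 16, 16 and 8 cells in the SAR131675, control diet, LNR and sham libraries. Without cells holding any 2 markers of another class they were 203 and 224, 48 and 46, and 650 and 561. Without cells holding such markers at 3 or more UMIs each, a choice made after seeing the data, they were 711 and 808, 307 and 338, and 1540 and 1369. With no filter on low counts the arterial counts were 485 and 572. Leaving out each library in turn gave 307 to 548, 429 to 637, 32 to 190, 77 to 298, 845 to 1344 and 772 to 1130, with the lowest value always without SAR131675.

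The labels pair no samples by number beyond the library, which was the block. With no replicate block for the library edgeR gave 30 and 70, 0 and 7, and 585 and 535, or 303 and 396, 181 and 299, and 1084 and 971 at an unadjusted p under 0.05. Of the 20 genes named for size in each comparison, 16, 3 and 20 passed without the block. Without SAR131675, 20 of 20, 14 of 19 and 20 of 20 passed. Fewer could be fitted without strong carriers, of which 17 of 17, 10 of 14 and 19 of 19 passed. After thinning 10 of 10, 3 of 5 and 12 of 12 of those fitted passed. Without any marker cells 7 of 7 fitted passed against venous and 11 of 11 against lymphatic cells.

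The sign of some values turned. Against venous cells Vegfc was at 0.164 without cells holding any markers of another class. Against arterial cells thinning gave Cxcl1 0.616, Fosb 0.0108, Itga1 0.0804, Gpihbp1 -1.06 and Notch3 0.939, leaving out cells with any such markers gave Il6 0.183, Fosb 0.136 and Kitl 0.176, and leaving out strong carriers gave Cxcl1 0.328.

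Between diets, 125 genes 2-fold higher and 76 lower became 16 and 26 without any marker cells, 46 and 47 without strong carriers and 20 and 19 after thinning, and 124 were lower by the mean of per-cell CPM. Between LNR and sham, 48 and 63 became 10 and 12, 11 and 16, and 12 and 17, and 86 and 115 by per-cell CPM. The diet ratio turned for Apoc1 (-0.282, strong carriers out), Igfbp5 (4.12 and 1.98, any and strong carriers out), Lor (0.618 with 4 endothelial genes required, 0.216 and 0.303) and Col1a1 (0.0809 strong carriers out, 1.25 thinned, 0.140 per-cell CPM). The LNR ratio turned with strong carriers out for Hba-a1 (-0.215), Wfdc17 (0.0102), Cd74 (1.06), Col1a1 (0.550, and 0.224 thinned) and Fn1 (-0.120, and -0.935 without any marker cells), and after thinning for Vcam1 (-0.112). The log2 ratio of the shares of cells was -0.577 without venous or arterial UMIs and -0.375 without any marker cells in the diet pair, and -0.246 with 2 endothelial genes required and 0.317 without any marker cells in the LNR pair. Thinning and leaving out cells lower the UMIs summed, and otherwise the cause was not tested. Depth limits the states, since thinned libraries held 4 to 6 capillary cells in the tip state.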

Other observations

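Besides the genes described, some of those that stood farthest above all other kept cells in every library belong to no list used here. Tspan13, a tetraspanin gene, was at 1029, 1048, 619 and 514 CPM in capillary cells, with the libraries in the order SAR131675, control diet, LNR and sham, and at 16.6 to 21.4 CPM in all other kept cells. Scarb1, the receptor for high-density lipoprotein, was at 899, 1010, 412 and 363 CPM against 12.3 to 19.5 CPM, and Cyyr1 at 1052, 1144, 189 and 179.7 CPM against 5.34 to 21.4 CPM. Cd200, which encodes a ligand that restrains myeloid cells, went the other way between the experiments, at 763, 830.3, 1382 and 1140.4 CPM against 31.3 to 87.0 CPM. Ctla2a, a cysteine protease inhibitor gene, was at 616, 453, 648 and 643 CPM against 15.2 to 34.05 CPM. The cells were chosen by other endothelial genes of the same barcodes, so these values are a description without a test.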
